A study of Homo sapiens with 6 samples.

Results

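The KLF (Krüppel-like factor) genes described here are KLF2, KLF3, KLF4, KLF6, KLF7, KLF9, KLF10, KLF11, KLF12 and KLF13. They are 10 of the 18417 genes read by at least 1 probe set annotated to a single gene symbol. They were chosen with earlier results of these data known, and the 7 other measured KLF genes are described further below. The brightest probe set of that kind stands for a gene (a probe set is a group of probes summarised as 1 value). The cells were RL, a human line established from a B-cell lymphoma and carrying t(14;18), kept in RPMI-1640 with serum. RNA came from 3 untreated samples and from 3 samples treated with LY317615 (enzastaurin, which was made as an inhibitor of protein kinase C beta), with 48 h in every sample title. The labels give the dose as 2.5 mM, a unit that could not be checked here, and no vehicle is named for the controls. Only 1 cell line was used. Whether replicates were grown separately is not stated, so the p-values reflect spread among these 6 arrays alone, possibly technical spread. All values below are log2 intensities of Affymetrix Gene 1.0 ST arrays, and every change is LY317615 minus untreated.

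KLF proteins bind GC-rich DNA, the GC box and the CACCC box, through C2H2 zinc fingers at their C-terminal end that are close copies of each other across the family and in the related SP factors. They differ in the rest of the protein. KLF2, KLF4, KLF6 and KLF7 carry acidic activation domains, KLF3 and KLF12 recruit the corepressor CtBP, and KLF9, KLF10, KLF11 and KLF13 recruit the SIN3 corepressor complex. In lymphocytes KLF2 is known for keeping cells quiescent and for controlling homing receptors, and KLF4 for restraining B-cell proliferation. KLF10 and KLF11 were first known as early response genes of TGF-beta, and KLF9 is a target of the glucocorticoid receptor.

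After LY317615, RNA of KLF7, KLF6, KLF11, KLF12 and KLF10 fell and that of KLF9 rose. KLF7 fell 3.22-fold and KLF6 1.85-fold, and the other called members changed by 1.23-fold to 1.47-fold. The calls of KLF10 and KLF9 were less stable. Each was lost after cyclic loess (explained below) and when some single arrays were left out. No call was made for KLF2, KLF3, KLF4 and KLF13. In limma with Benjamini-Hochberg adjustment over all 18417 genes, 6 of 10 members passed an adjusted p of 0.05, against 35.7% of all genes. By direction, 1 member rose (14.2% of all genes) and 5 fell (21.4% of all genes). The share of calls that were lower was 60.1% as deposited. It was 53.5% after cyclic loess and 71.4% once all arrays had the same median; cyclic loess is a scaling that removes trends with brightness. The 3 treated arrays did not overlap the 3 untreated arrays in 7 members, against 49.8% of all genes. The members' median change was -0.21, beside 0.02 over all genes, and their median size of change was 0.37, beside 0.20. KLF7 alone changed by at least 1, a size with a call in 1.32% of all genes. The members were chosen with earlier results of these data known. These counts and medians therefore describe the 10 genes alone and not the KLF family. Of the 7 other measured KLF genes, 2 rose and 0 fell, with a median of 0.27.

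**Figure D1:**
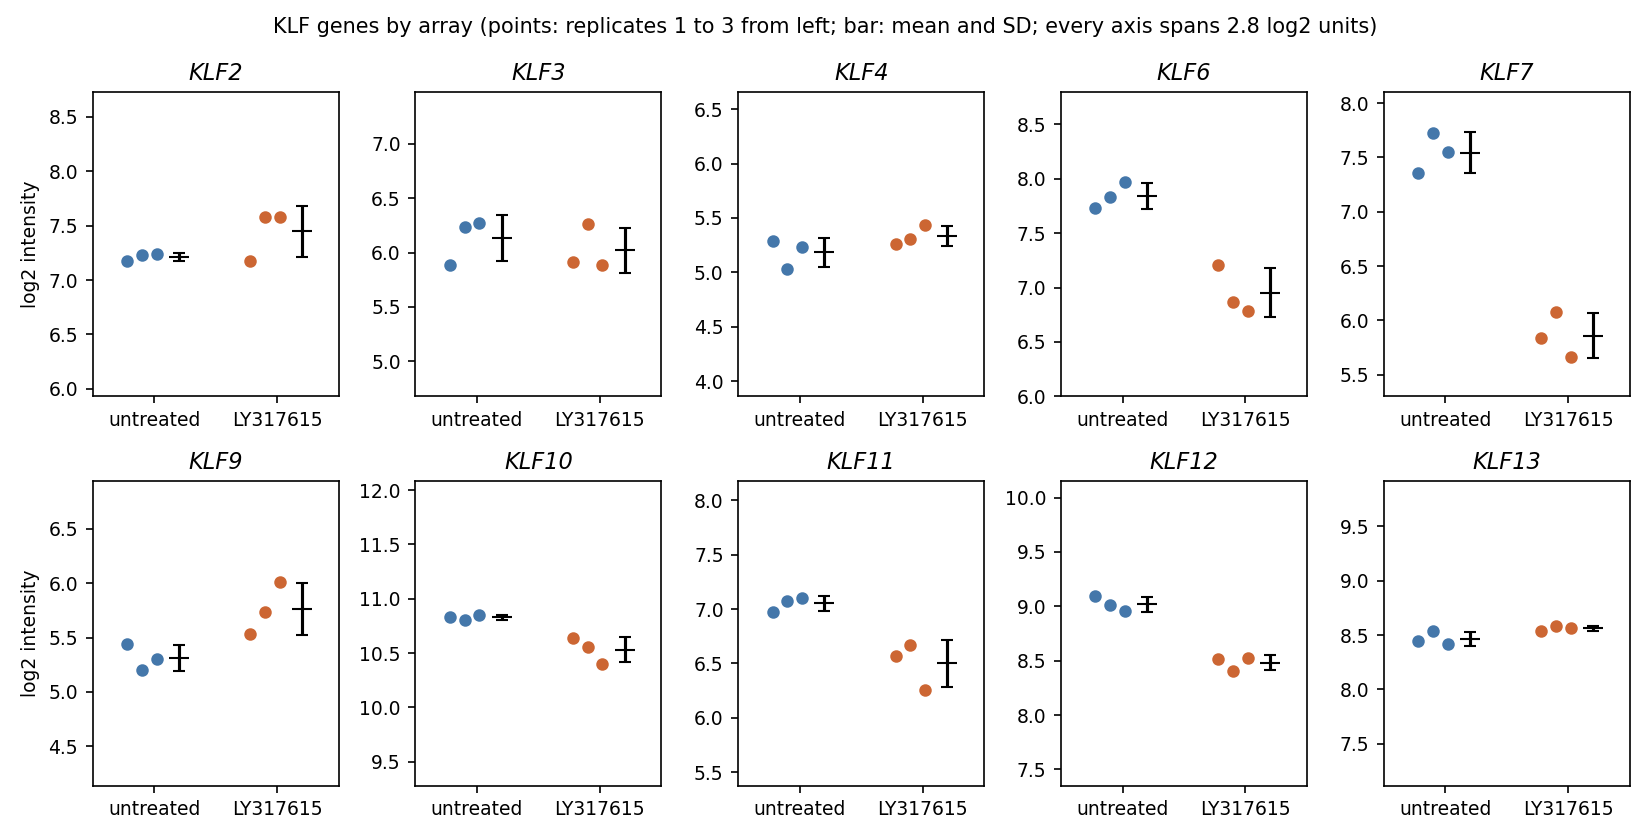
Log2 intensity (vertical axis) of each KLF gene on 3 untreated (blue) and 3 LY317615 (orange) arrays, 1 point per array, with the mean and SD as a black bar; every panel spans the same log2 range around its own middle. The treated points of KLF7 lie at least 1.28 below the untreated points, while those of KLF2, KLF3 and KLF4 overlap them.

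The arrays differed in ways that touch these values. Median intensity over all probe sets ran from 56.7 to 58.2 on the untreated and from 60.0 to 61.4 on the treated arrays, and the third treated array had a limma array weight of 0.376 (a low weight marks an array that departs from its group) against 1.04 to 1.51 for the other 5. Changes also moved with brightness: over 5 equal bins of genes from dim to bright, the median change was 0.06, 0.15, 0.11, -0.14 and -0.21. From dim to bright, the share of genes called lower in these bins was 2.36%, 4.70%, 15.4%, 37.0% and 47.6%. KLF4 and KLF9 lay in the bin with a median of 0.15, and KLF3, KLF7 and KLF11 in that of 0.11. KLF2, KLF6 and KLF13 lay in that of -0.14, and KLF10 and KLF12 in the brightest. Values after cyclic loess are therefore given beside each member whose call it altered. All 5 measured B-cell markers (MS4A1, CD79A, CD79B, PAX5, CD22) were bright, at percentiles 95.2 to 98.9 of untreated genes, and 4 of them fell. Of 19 measured markers of T, myeloid, erythroid, fibroblast and endothelial cells, 18 lay below the 50th percentile. Among these 19, 6 rose, namely CD3E, CD14, CSF1R, MPO, COL1A2 and PECAM1, and 0 fell. The log2 of the summed linear intensities of the T-cell markers went from 6.56 to 6.65 up to 6.79 to 7.02. For the myeloid markers this value went from 7.09 to 7.16 up to 7.40 to 7.64. It was 5.79 to 6.01 untreated and 6.01 to 6.08 treated for the erythroid markers. For the fibroblast markers it was 7.29 to 7.48 untreated and 7.51 to 7.78 treated. For the endothelial markers it was 7.30 to 7.38 untreated and 8.08 to 8.19 treated. Among the endothelial markers PECAM1 (percentile 53.5) changed by 1.12, while CDH5, VWF and KDR changed by 0.23, 0.09 and 0.07 without a call. The part of these shifts in the KLF changes was not tested.

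KLF7 (probe set 8058477), an activator known from neuronal growth and from blood progenitors, had the largest change of the family. Its log2 intensity was 7.35, 7.73 and 7.55 on the untreated arrays and 5.84, 6.07 and 5.66 on the treated arrays. Every treated array was lower than every untreated one. The change was -1.69 ± 0.13 (SE, n = 3 per group, limma adjusted p = 5.28e-05). Counted from the largest fall, it ranked 18 of 18417 genes. It was -1.72 after cyclic loess, and between -1.79 and -1.59 when any 1 array was left out. In bulk RNA, less RNA per cell cannot be told apart from fewer cells that hold it.

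KLF6 (probe set 7931810), an activator induced by injury and serum in many cell types, read 7.73, 7.83 and 7.97 on the untreated arrays. On the treated arrays it read 7.21, 6.87 and 6.78, again without overlap. The change was -0.89 ± 0.12 (SE, n = 3, limma adjusted p = 0.000686), and -0.82 after cyclic loess.

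The other activators of the set gave no call. KLF2 (probe set 8026564) read 7.17, 7.23 and 7.24 on the untreated arrays and 7.18, 7.58 and 7.58 on the treated ones. The first treated array thus lay inside the untreated range, while the other 2 were above it. The change was 0.23 ± 0.11 (SE, n = 3, limma adjusted p = 0.135, 95% interval -0.02 to 0.49). Without LY317615 replicate 1 it became 0.37 (adjusted p = 0.0126), and without LY317615 replicate 3 it was 0.17 (adjusted p = 0.325). KLF4 (probe set 8163002), best known as a pluripotency factor, was dim: it lay at percentile 31.9 of untreated genes. It read 5.29, 5.03 and 5.23 on the untreated and 5.26, 5.31 and 5.43 on the treated arrays, and these ranges overlapped. Its change was 0.15 ± 0.09 (SE, n = 3, limma adjusted p = 0.23, 95% interval -0.06 to 0.36).

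Of the CtBP-binding repressors, KLF12 fell and KLF3 gave no call. KLF12 (probe set 7972003) read 9.09, 9.01 and 8.95 on the untreated arrays and 8.52, 8.40 and 8.52 on the treated arrays. The 2 groups lay 0.43 apart at their nearest points. The change was -0.54 ± 0.08 (SE, n = 3, limma adjusted p = 0.00102). After cyclic loess the change was -0.34 (adjusted p = 0.0151). KLF3 (probe set 8094599), which acts in erythroid and B cells and is itself activated by KLF1, read 5.89, 6.23 and 6.27 on the untreated and 5.91, 6.26 and 5.89 on the treated arrays. The ranges nearly coincided, and the change was -0.11 ± 0.13 (SE, n = 3, limma adjusted p = 0.537, 95% interval -0.41 to 0.19). KLF3-AS1, the transcript antisense to KLF3, was dimmer and changed by -0.11 ± 0.15 (SE, n = 3, limma adjusted p = 0.581).

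The SIN3-binding members went both ways. KLF11 (probe set 8040211) read 6.98, 7.08 and 7.10 on the untreated arrays and 6.57, 6.67 and 6.26 on the treated arrays. The groups did not overlap, and the third treated array was the lowest of the 6. The change was -0.55 ± 0.11 (SE, n = 3, limma adjusted p = 0.00486), and -0.43 without LY317615 replicate 3 (adjusted p = 0.00641).

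KLF10 (probe set 8152215), the closest relative of KLF11 in the set, was bright and moved little. It read 10.83, 10.81 and 10.85 on the untreated arrays and 10.63, 10.56 and 10.40 on the treated arrays, without overlap. The change was -0.30 ± 0.08 (SE, n = 3, limma adjusted p = 0.0208). That call was lost after cyclic loess (-0.08, adjusted p = 0.411), and without untreated replicate 1 (adjusted p = 0.0564), 2 (0.054) or 3 (0.0677). Genes in its bin of brightness fell often: 47.6% of them were called lower.

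KLF9 (probe set 8161648), the only member that rose, was dim, at percentile 34.3 of untreated genes. It read 5.44, 5.21 and 5.30 on the untreated arrays and 5.53, 5.74 and 6.01 on the treated arrays. The lowest treated array stood 0.09 above the highest untreated one. The change was 0.45 ± 0.12 (SE, n = 3, limma adjusted p = 0.0214). It was 0.30 after cyclic loess (adjusted p = 0.0637), and the call was also lost without untreated replicate 2 (adjusted p = 0.0717) or 3 (0.0571). In its bin of brightness 18.1% of genes were called higher and 4.70% lower.

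KLF13, an activator of CCL5 in T cells that can also repress, was read by 2 probe sets. The brighter (7982326) read 8.45, 8.54 and 8.42 on the untreated and 8.54, 8.58 and 8.56 on the treated arrays. These groups did not overlap, but by only 0.002 on the log2 scale. The change was 0.09 ± 0.07 (SE, n = 3, limma adjusted p = 0.339, 95% interval -0.07 to 0.26), and it passed after cyclic loess (0.28, adjusted p = 0.019). The dimmer probe set (7982333) changed by 0.04 ± 0.11 (SE, n = 3, limma adjusted p = 0.786 in a fit of all probe sets). KLF13 and KLF9 therefore exchanged places as the called rise between the deposited scale and cyclic loess.

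**Figure D2:**
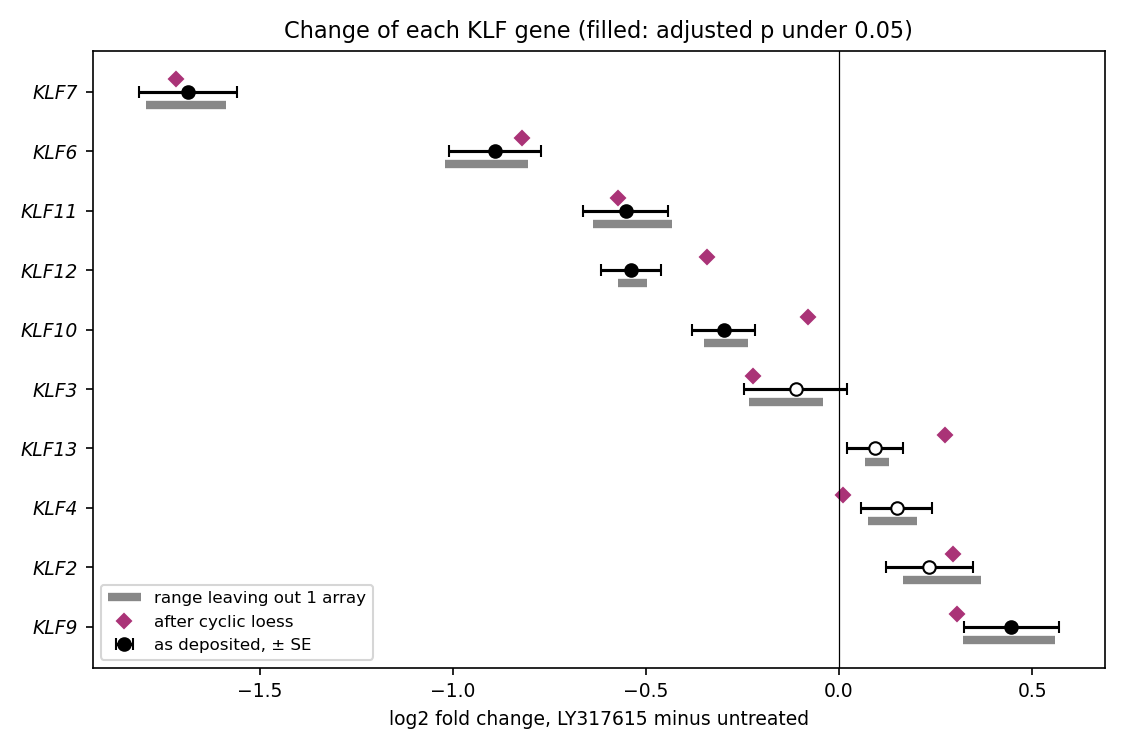
Log2 fold change of each KLF gene (LY317615 minus untreated, horizontal axis): black circles with SE as deposited, filled where the adjusted p was under 0.05, diamonds after cyclic loess, grey bars the range when 1 array was left out. KLF7 ranges from -1.79 to -1.59 and KLF6 from -1.02 to -0.81 when 1 array is left out, while the diamond of KLF10 lies at -0.08 and that of KLF13 at 0.28.

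Arrays within a group were not equally spread. The treated range was wider than the untreated one in 6 of 10 members, and 5 of the 6 called members had their most extreme treated value on the third treated array, the one of low weight; KLF12 was the exception. The sizes without that array were -1.59 for KLF7, -0.81 for KLF6, -0.43 for KLF11, -0.56 for KLF12, -0.23 for KLF10 and 0.32 for KLF9. All 6 calls remained without it, with adjusted p between 0.000443 and 0.0488.

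The genes whose values ran nearest to those of KLF7, after centring each on its mean over the 6 arrays, were DUSP10, a phosphatase gene for JNK and p38 kinases, at a mean absolute difference of 0.08, FBXL20, an F-box gene, at 0.09, and FCER2, which encodes CD23, at 0.09. DUSP10 changed by -1.54 ± 0.12, FBXL20 by -1.57 ± 0.12 and FCER2 by -1.55 ± 0.10 (SE). For KLF9 the nearest were NKX2-5, a heart transcription factor gene, at 0.03, DSCR10 at 0.03 and DANT2 at 0.04. Each of these 3 changed by 0.41 or 0.42. The genes near KLF7 and KLF9 were picked for likeness on these same 6 arrays, so their like changes follow from the choice.

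Promoter sequence is shown for the members whose start regions hold a MEF2 site, an E-box, a serum response element or a full cAMP response element, the rarer motifs among those searched that any member held. MEF2 genes and MYC are measured below, and the factors of the other motifs are not described here. RefSeq (GRCh38.p14) gave 15 start windows for 8 members, with none matched for KLF3 and KLF10, and the 250 bases before each start were searched on both strands. The KLF2 window directly before the annotated gene, chr19:16324576-16324825 on the plus strand, is given because it holds a MEF2 site, the motif through which ERK5 and MEF2 factors are known to act on KLF2. The site is in capitals and ends 110 bases before the start.
KLF2: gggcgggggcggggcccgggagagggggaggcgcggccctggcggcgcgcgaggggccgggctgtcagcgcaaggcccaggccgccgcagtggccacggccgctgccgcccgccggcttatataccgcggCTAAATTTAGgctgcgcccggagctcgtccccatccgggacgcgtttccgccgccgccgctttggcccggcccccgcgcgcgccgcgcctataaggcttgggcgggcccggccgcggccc
The KLF6 window directly before its gene, chr10:3785210-3785459 on the minus strand, is given with its E-box (CACGTG, the motif bound by MYC and its relatives) in capitals, 91 bases before the start.
KLF6: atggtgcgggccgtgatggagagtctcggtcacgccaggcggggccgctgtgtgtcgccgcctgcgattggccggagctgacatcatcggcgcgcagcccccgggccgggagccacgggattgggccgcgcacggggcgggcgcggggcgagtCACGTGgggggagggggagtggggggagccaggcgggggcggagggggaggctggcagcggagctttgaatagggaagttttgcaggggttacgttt
Shorter stretches show the other matches at members of interest, again in capitals and 5′ to 3′. KLF4 (chr9:107489911-107489936, minus strand) holds an E-box 151 bases before its start. KLF7 holds an E-box (chr2:207134308-207134333) and a serum response element (chr2:207167289-207167318), both on the minus strand in windows that lie within the annotated gene. KLF11 holds an E-box (chr2:10043637-10043662) and a cAMP response element (TGACGTCA, chr2:10044035-10044062) on the plus strand, also within the annotated gene. KLF12 holds a MEF2 site (chr13:74027059-74027088, minus strand) in a window within its gene.
KLF4 E-box: cccccgccccCACGTGcgccgagttt
KLF7 E-box: gaacgttgtaCACGTGtgcagctgtg
KLF7 serum response element: accacactaaCCATTTAAGGtcaagcaaac
KLF11 E-box: gcccgcagccCACGTGcggccgctgc
KLF11 cAMP response element: tttccagccaTGACGTCAccccggtcct
KLF12 MEF2 site: ttattctactCTATTTTTAAgagaaacact

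E-boxes were found in 4 of the 15 member windows, against 6.34% of 35116 windows of the same length over all genes. MEF2 sites were in 2 (the other in a KLF12 window), against 2.8%, and the serum response element and the full cAMP response element in 1 each, against 1.16% and 1.65%. GC boxes (GGGCGG) were in 8 of the 15, against 42.6%, and CACCC boxes (CCACCC) in 4, against 31.3%. A FOXO site (TGTTTAC) was in 0 of the 15 windows, against 2.98%. No window held more than 1 of the E-box, cAMP response element, MEF2 site and serum response element, while GC boxes and CACCC boxes can share their runs of G. Windows of 1 gene are not independent, and a match of letters is not a bound site. The 3 genes KLF6, KLF7 and KLF11 with an E-box fell, and KLF4 with one gave no call. Of the searched members without an E-box, KLF12 fell, KLF9 rose, and KLF2 and KLF13 gave no call. KLF10, which fell, had no window to search. Genes with several windows, such as KLF7, KLF11 and KLF12, had more room for a match. No link of a motif to a change was tested. Of the genes with a MEF2 site, KLF12 fell and KLF2 gave no call.

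The known regulators of KLF2 were measured in part. ERK5 activates MEF2 factors, which act on KLF2, and FOXO1 drives KLF2 in lymphocytes. Of 10 measured genes of this list, 0 rose and 3 fell, with a median change of -0.03. Over all genes, against which this and the following lists are to be read, 14.2% rose and 21.4% fell, with a median of 0.02. MEF2D read 8.77 ± 0.10 untreated and 7.95 ± 0.01 treated (SD, n = 3), and changed by -0.82 ± 0.08 (SE, limma adjusted p = 0.000133). FOXO4 changed by -0.63 ± 0.07 (limma adjusted p = 0.000292). MEF2A changed by -0.30 ± 0.08 (limma adjusted p = 0.0164), a call lost after cyclic loess (adjusted p = 0.378) and without untreated replicate 3 (0.0597). Named after their values were seen, MAPK7, the gene of ERK5, changed by 0.005 ± 0.099, FOXO1 by -0.04 ± 0.08 and MEF2C by 0.05 ± 0.07, and none of them passed. MEF2C rose after cyclic loess (0.27, adjusted p = 0.0207), and FOXO3 rose without LY317615 replicate 1 (0.46, adjusted p = 0.0178).

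Of the genes of lymphocyte homing and surface receptors tied to KLF2, 2 of 11 measured rose and 5 fell, with a median of 0.08. FCER2, also among the genes nearest to KLF7, fell from 7.67 ± 0.15 to 6.11 ± 0.09 (SD, n = 3). CCR7, the lymph node homing receptor, changed by -1.03 ± 0.14, CD55, a complement inhibitor, by -0.96 ± 0.08 and IL6R, the interleukin 6 receptor, by -0.64 ± 0.08 (SE, limma adjusted p = 0.000637, 8.36e-05 and 0.000584). The fifth that fell was CR2, the complement receptor gene, at -0.52 ± 0.12, and it was dim, at percentile 11.6 of untreated genes. The rises were CXCR5, the follicle homing receptor, at 0.62 ± 0.10, and the sphingosine phosphate receptor gene S1PR5 at 0.33 ± 0.08, both chosen for mention after the fact. CXCR3, a chemokine receptor gene that KLF2 is known to restrain in T cells, changed by 0.39 ± 0.14 (limma adjusted p = 0.0504). It passed in the fit with a replicate block (0.0105), without LY317615 replicate 2 (0.0274) and without untreated replicate 3 (0.0454), which made the rises 3. S1PR1, the textbook KLF2 target, was dim, at percentile 5.94, and changed by 0.18 ± 0.08 (limma adjusted p = 0.101). ITGB7, an integrin gene lowered in B cells that lack KLF2, changed by 0.16 ± 0.09 (limma adjusted p = 0.184) and rose after cyclic loess (0.38, adjusted p = 0.00545) and without LY317615 replicate 3 (0.24, adjusted p = 0.0403).

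The TGF-beta pathway, to which KLF10 and KLF11 belong as early response genes, moved both ways: of 19 measured genes 4 rose and 3 fell, with a median of -0.04. Both main receptors rose. TGFBR1 went from 9.30 ± 0.07 to 10.04 ± 0.04 and TGFBR2 from 6.70 ± 0.05 to 7.30 ± 0.08 (SD, n = 3), changes of 0.74 ± 0.08 and 0.60 ± 0.08 (SE, limma adjusted p = 0.000183 and 0.000554). The inhibitory SMAD6 rose by 0.37 ± 0.08 (limma adjusted p = 0.00897). ID3, an inhibitor of E proteins, changed by -0.38 ± 0.08 (limma adjusted p = 0.00719), and was not called after cyclic loess (-0.20, adjusted p = 0.0556). The other calls were SKI at 0.28 ± 0.08, SKIL at -0.29 ± 0.09 and SMAD3 at -0.21 ± 0.07 (limma adjusted p = 0.0214, 0.0318 and 0.0499). The SMAD3 call was lost when any 1 array was left out and with the replicate number as a block (0.0825). After cyclic loess SMAD3 changed by 0.006 (adjusted p = 0.95). The SKI call was lost when any of 3 arrays was left out (adjusted p up to 0.0788) and with array medians set equal (0.058). The SKIL call was lost when any of 4 arrays was left out (up to 0.107) and after cyclic loess (-0.07, adjusted p = 0.561). With cyclic loess the list had 6 higher and 1 lower and a median of 0.08. Its falls went from 3 to 1 without untreated replicate 3.

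KLF9 is a glucocorticoid-responsive gene. Of 6 other measured genes of the glucocorticoid receptor list, 1 rose and 3 fell, with a median of -0.21. TSC22D3, which encodes GILZ, read 10.16 ± 0.02 untreated and 8.83 ± 0.06 treated (SD, n = 3), and changed by -1.33 ± 0.07 (SE, limma adjusted p = 1.61e-05). DUSP1, a phosphatase gene for MAP kinases, changed by -0.65 ± 0.10 (limma adjusted p = 0.00143). The receptor gene NR3C1 changed by -0.24 ± 0.08 (limma adjusted p = 0.0378) and ZBTB16 by 0.23 ± 0.07 (0.0332). The last 2 calls were each lost when any of 5 of the 6 arrays was left out (adjusted p up to 0.114 and 0.125). Both were also lost with the replicate number as a block (0.0612 and 0.0596) and after cyclic loess. On that scale NR3C1 changed by -0.02 (adjusted p = 0.853) and ZBTB16 by 0.09 (0.38). The list then had 0 higher and 3 lower, since another gene passed.

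KLF proteins recruit corepressors and coactivators, and of 15 measured genes of these 9 fell and 1 rose, with a median of -0.30. After cyclic loess 4 fell and 3 rose, and the median was -0.10. These genes lay at percentiles 57.2 to 99.7 of untreated genes. In the middle bin and the 2 brightest of the 5 bins 15.4%, 37.0% and 47.6% of all genes were called lower. SAP18, a subunit of the SIN3 complex, changed by -0.53 ± 0.07, and the deacetylase genes HDAC1 and HDAC2 by -0.47 ± 0.07 and -0.38 ± 0.07 (SE, limma adjusted p = 0.000936, 0.00139 and 0.00306). HDAC2 was not called after cyclic loess (adjusted p = 0.103). The acetyltransferase gene KAT2B rose by 0.46 ± 0.08 (limma adjusted p = 0.00334). The fallen genes numbered 6 without untreated replicate 2 or 3, against 9.

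Ubiquitin ligases that act on KLF proteins gave 2 rises and 3 falls of 12 measured, with a median of -0.09. FBXO32, which targets KLF4 among others, fell from 7.60 ± 0.11 to 5.54 ± 0.25 (SD, n = 3), with a log2 change of -2.06 ± 0.12 (SE, limma adjusted p = 2.04e-05), the largest change in any of these lists. FBXO22, another ligase gene for KLF4, changed by -0.37 ± 0.07 (limma adjusted p = 0.00457) but was not called after cyclic loess (-0.17, adjusted p = 0.0744). VHL rose by 0.33 ± 0.09 (limma adjusted p = 0.0188), a call lost when any of 3 arrays was left out (adjusted p up to 0.0684). SMURF1 changed by -0.26 ± 0.08 (limma adjusted p = 0.0302), a call lost when any of 5 arrays was left out (up to 0.0924). The other rise was SMURF2, at 0.35 ± 0.11 (limma adjusted p = 0.0308). Its call was lost when any of 5 arrays was left out (up to 0.0994) and with array medians set equal (0.063). It was kept after cyclic loess (0.40, adjusted p = 0.0123). Both rises were lost without LY317615 replicate 2 and without untreated replicate 2 or 3. After cyclic loess 3 of the list rose and 1 fell.

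**Figure D3:**
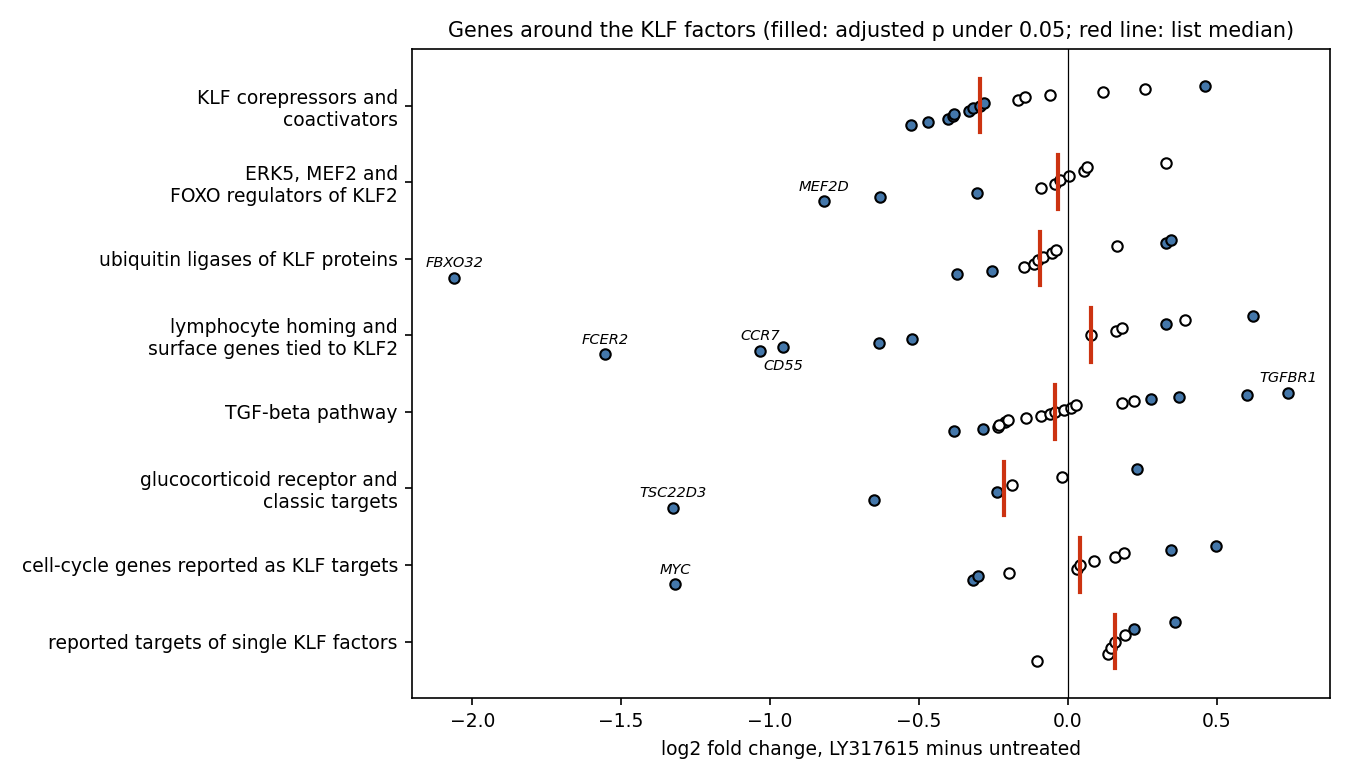
Log2 fold change (LY317615 minus untreated, horizontal axis) of each measured gene in 8 lists around the KLF factors, 1 point per gene, filled where the adjusted p was under 0.05, with the list median as a red line. List medians lie between -0.30 and 0.16, and FBXO32, FCER2, TSC22D3 and MYC stand furthest to the left.

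Cell-cycle genes reported as targets of KLF factors also divided: of 11 measured, 2 rose and 3 fell, with a median of 0.04. MYC, which KLF2 and KLF4 are reported to repress, read 11.62 ± 0.08 untreated and 10.31 ± 0.14 treated (SD, n = 3), and changed by -1.32 ± 0.09 (SE, limma adjusted p = 3.55e-05). The CDK inhibitor gene CDKN1C rose by 0.50 ± 0.09 (SE, limma adjusted p = 0.00401). ODC1, the first enzyme of polyamine synthesis, changed by -0.32 ± 0.07 (limma adjusted p = 0.00927) and the cyclin gene CCND2 by -0.30 ± 0.08 (0.0196). The ODC1 call was lost after cyclic loess (adjusted p = 0.161), and that of CCND2 without untreated replicate 1 (0.0702) or LY317615 replicate 1 (0.0616). CDKN1A, the classic KLF4 and KLF6 target, changed by -0.20 ± 0.09 (limma adjusted p = 0.103), and passed without LY317615 replicate 2 (-0.27, adjusted p = 0.0439). The other rise was the cyclin gene CCND1, at 0.34 ± 0.12 (limma adjusted p = 0.0478), a call lost when any of 5 arrays was left out (up to 0.119). The rises numbered 1 without LY317615 replicate 1 or any 1 untreated array, and 4 after cyclic loess.

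Among 7 measured genes reported as targets of single KLF factors, 2 rose and 0 fell, with a median of 0.16. The chemokine gene CCL5 rose by 0.36 ± 0.10 (limma adjusted p = 0.0208) and the survival gene BCL2L1 by 0.22 ± 0.08 (0.0477), both of them reported KLF13 targets. CCL5 was not called after cyclic loess (adjusted p = 0.138), without LY317615 replicate 1 (0.0652) or without untreated replicate 2 (0.0785). BCL2L1 was not called when any of 5 arrays was left out (adjusted p up to 0.163), with the replicate number as a block (0.0631) or with array medians set equal (0.16), but its rise was larger after cyclic loess (0.38, adjusted p = 0.00313). Without LY317615 replicate 1, or without untreated replicate 2, the list had 0 calls.

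Among the rest of the family no fall was called. Of 7 other measured KLF genes (KLF1, KLF5, KLF8, KLF14, KLF15, KLF16, KLF17), 2 rose and 0 fell, with a median of 0.27. After cyclic loess 1 rose and 0 fell, and the median was 0.17. Except for KLF16, at percentile 68.8 of untreated genes, none lay above percentile 55.9. In the 3 dimmest bins of brightness 6.73%, 18.1% and 24.4% of all genes were called higher, and 2.36%, 4.70% and 15.4% lower. The part of brightness in the contrast with the members was not tested. KLF14 rose by 0.40 ± 0.10 (SE, limma adjusted p = 0.0117) and KLF17 by 0.35 ± 0.09 (0.0183). The KLF17 call was lost after cyclic loess (0.21, adjusted p = 0.118), without LY317615 replicate 1 (0.0595) and without untreated replicate 2 (0.0719). KLF1, the erythroid factor, changed by 0.27 ± 0.11 (limma adjusted p = 0.0839) and KLF5 by 0.05 ± 0.08 (0.653). KLF16, a SIN3-binding factor like KLF9, changed by -0.15 ± 0.08 (limma adjusted p = 0.146). KLF15 rose without LY317615 replicate 2 (0.39, adjusted p = 0.0205), which made the rises 3.

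SP factors, which share the zinc fingers and the GC box with the KLF family, gave 2 rises and 1 fall of 8 measured, with a median of 0.14. SP2 changed by -0.39 ± 0.08 (SE, limma adjusted p = 0.00561) and kept its call in every omission of 1 array and after cyclic loess. SP5 and SP6 rose by 0.30 ± 0.10 and 0.26 ± 0.08 (limma adjusted p = 0.0436 and 0.0369), and these calls were lost when any of 4 and 5 arrays, respectively, was left out (adjusted p up to 0.139 and 0.124). The broadly expressed SP1 and SP3 changed by -0.13 ± 0.08 and 0.11 ± 0.07 and did not pass. Without untreated replicate 1 or 2, or with array medians set equal, 0 SP genes rose, and the replicate block left 1 (SP6 adjusted p = 0.0543). After cyclic loess the 2 rises were SP3 and SP4. Whether the difference between these families and the members exceeds chance was not tested, since the members were chosen with results known.

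**Figure D4:**
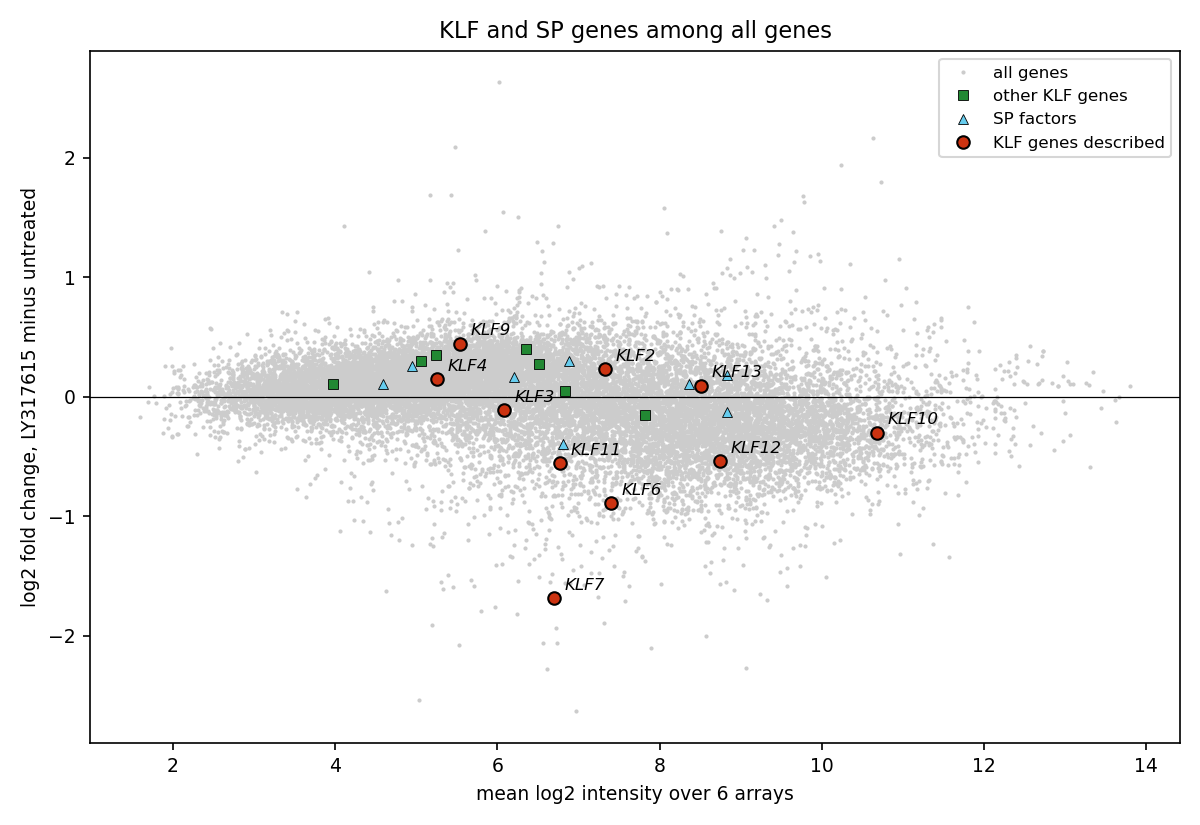
Log2 fold change (vertical axis) against mean log2 intensity over the 6 arrays (horizontal axis) for all genes in grey, the 10 KLF genes in red, other KLF genes as green squares and SP factors as blue triangles. KLF7 and KLF6 lie at -1.69 and -0.89, below all the other KLF and SP genes, and most of the green and blue points lie above 0.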

How the data were processed

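The authors deposited linear intensities of 33297 probe sets on 6 arrays. GCOS 1.4, Affymetrix Expression Console and RMA are named, per the submitters' processing notes; their order is not given in the sources used here. Since RMA usually ends on log2, an unstated step back is likely. Log2 was taken of the values the authors deposited, with no constant and no further scaling.

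Of the probe sets, 19460 had 1 gene symbol, 1754 several and 12083 none. Only the first were used, the brightest for each of the 769 genes with several, which gave 18417 genes. No detection calls or dim filter were used. Old symbols were updated through RefSeq, and genes missing from a list were not analysed here. Zinc finger genes are similar in sequence, and sharing of probes was not tested.

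Groups came from the labels. Every gene was tested, two-sided, in limma 3.58.1 (R 4.3.3; eBayes without trend), Benjamini-Hochberg adjusted over all genes, at a threshold of 0.05. SEs come from that model, SDs from 3 arrays. The code was tested on simulated data. Python 3.11.15 with pandas 2.3.3 served for tables and matplotlib 3.10.9 for plots. The members, lists and promoter motifs were chosen with earlier results of these data known, and lists are described without set tests. All members were named, and of each list up to 4 genes that passed, by smallest adjusted p; FOXO1, FOXO3, MEF2C, MAPK7, S1PR1, S1PR5, CXCR5, CXCR3, CR2, SKI, SKIL, SMAD3, SMURF2, ITGB7, CDKN1A, CCND1, KLF1, KLF5, KLF15, KLF16, SP1, SP3, SP4 and KLF3-AS1 fall outside that rule and were named after their values were seen. Tried as alternatives were omission of each array, a replicate block, other variance priors, array weights, equal medians, cyclic loess, a dim filter, other use of probe sets and an adjusted p of 0.01.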

Additional observations from a re-analysis of the deposited data

How the results depend on the processing

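No member changed direction under any alternative run. The calls of KLF7, KLF6, KLF11 and KLF12 were kept under all of them, including an adjusted p of 0.01, at which 0 members were called higher, against 1, and 3586 genes in all, against 6568. Leaving out 1 array gave 0 to 2 members higher, 4 or 5 lower and 4609 to 6153 genes in all. Cyclic loess left 4 members lower, and 53.5% of all calls were then lower; with array medians set equal that share was 71.4%. With the replicate number as a block, 1 member rose and 5 fell, as without it, and 6548 genes were called. Deviations of samples numbered 1, 2 and 3 correlated with those of the same number at r = -0.017, 0.093 and 0.066 across genes. Samples numbered 2 and 3 correlated best with their own number, and those numbered 1 did not. Whether samples were paired by number cannot be told from these values. The number of arrays limits precision, and for dim genes such as KLF4 and KLF9 no detection calls showed whether the signal stood above background.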
